A study of Mus musculus with 34 samples.

Results

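Haptoglobin (*Hp*) and 7 further acute-phase genes, *Lcn2*, *Cp*, *Steap4*, *Saa3*, *Orm1*, *Serpina3n* and *C3*, were followed in RNA-Seq data from brown preadipocytes. They were 8 of the 23109 genes in these data. They were selected on their RPKM (reads scaled to transcript length and to all mapped reads of the library) in these same libraries, in the first place on the opposite changes of *Hp* in cells with and without the histone mutant. Each level and ratio given here is therefore a description of the libraries, and no test was made.

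The study asked how loss of H3K36 methylation, brought about by an H3.3K36M mutant histone or by knockdown of the methyltransferase Nsd2, affects adipogenesis. All 14 RNA-Seq libraries came from SV40T-immortalized preadipocytes of the interscapular brown fat of newborn C57BL/6J pups, which the sample labels further describe as carrying floxed glucocorticoid receptor alleles, while the methods call the donor mice WT. The 3 experiments had 1 library per condition, so a ratio compares 2 libraries and not 2 conditions with known spread. In the first, cells carried a retrovirus for WT or K36M H3.3 and were collected at D0, D2, and D7 of adipogenesis. In the second, the same kinds of cells also carried a PPARγ retrovirus and were kept sub-confluent, without differentiation medium, with DMSO or with the PPARγ ligand rosiglitazone (Rosi). The labels give time 0 for DMSO and 24 h for Rosi, whereas the study describes 24 h for both, and if the labels hold, ligand and time cannot be told apart. In the third, cells carried a lentivirus for a control (Ctrl) or an *Nsd2* knockdown (KD) shRNA and were collected at D0 and D2. The D2 libraries followed induction medium with dexamethasone, a glucocorticoid, together with insulin, T3, isobutylmethylxanthine, and indomethacin, so day and these agents cannot be told apart. After D2 the medium held only serum, insulin, and T3. From D2 to D7, day and withdrawal of the other agents therefore cannot be told apart either. Retroviral H3.3 and PPARγ were expressed ectopically, and the immortalized cells are a culture model of brown preadipocytes.

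Acute-phase proteins are secreted when tissue is injured or infected, mostly by the liver, but adipocytes and their precursors also make several of them. Interleukin-6 acts on their genes through STAT3, interleukin-1 and tumor necrosis factor act through NF-κB, and C/EBP factors and the glucocorticoid receptor act at many of the same promoters. *Hp* encodes the plasma protein that binds free hemoglobin. *Lcn2* encodes lipocalin 2, which binds bacterial siderophores and so withholds iron, *Cp* encodes ceruloplasmin, a copper-carrying ferroxidase, and *Steap4* encodes a membrane metalloreductase for iron and copper. *Saa3* encodes a serum amyloid A apolipoprotein made outside the liver, *Orm1* an acid glycoprotein, *Serpina3n* a serine protease inhibitor, and *C3* the central component of the complement cascade.

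Library depth ranged from 12213559 to 24365867 mapped reads. The preadipocyte and adipocyte labels were checked against marker genes. The 8 mesenchymal markers were all above 0 in every library. This is a weak check, since 8 of 9 leukocyte genes were also above 0 in PPARγ-expressing WT cells with DMSO. The mesenchymal markers summed to between 55.5 RPKM (KD cells at D2) and 2333 (Ctrl cells at D0). The 6 adipocyte markers summed to 244 RPKM in WT cells at D0 and 5612 at D2. Of the 5 brown adipocyte markers, the defining ones were at or near 0 throughout, with at most 0.194 RPKM for *Ucp1*, 0.0973 for *Cidea*, and 0.0543 for *Dio2*, while *Elovl3* and *Ppargc1a* reached 7.38 and 6.32 RPKM. Markers of cells that make acute-phase proteins elsewhere were low as well. *Fgb* was at 0 in all 14 libraries, *Alb* reached at most 0.116 RPKM, and the pan-leukocyte gene *Ptprc* at most 0.0391. The leukocyte list of 10 genes, 9 of them in the files, summed to 0.476 to 8.28 RPKM, with *Cd14* (7.97 RPKM in KD cells at D0) as its largest value. The hepatocyte list of 6 genes summed to at most 1.05 RPKM, the neutrophil list to at most 1.43, and the endothelial list to at most 0.934. Knockdown was visible in the targeted gene, with *Nsd2* at 19.9 and 29.0 RPKM in Ctrl cells at D0 and D2 and at 5.85 and 7.01 RPKM in KD cells.

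The genes lie on 8 different chromosomes in mm9, the build named in the submitters' processing notes. In the GENCODE M1 annotation of that build, *Hp* (NM_017370) spans chr8:112099030-112103072 on the minus strand, *Lcn2* (NM_008491) chr2:32240153-32243317 on the minus strand, and *Cp* (NM_007752) chr3:19857054-19909145 on the plus strand. *Steap4* (NM_054098) spans chr5:7960472-7982213 on the plus strand and *Saa3* (NM_011315) chr7:53967368-53971046 on the minus strand. *Orm1* (NM_008768) spans chr4:63005594-63009197 on the plus strand, *Serpina3n* (NM_009252) chr12:105644939-105652539 on the plus strand, and *C3* (NM_009778) chr17:57343397-57367559 on the minus strand. All 8 are protein-coding, and each RPKM is a value over the exons of 1 transcript. *Orm1*, *Saa3*, and *Serpina3n* belong to families of neighboring, similar genes, and the deposited values do not tell how reads shared with a paralog were assigned, so their levels are uncertain to that extent. The paralogs *Saa1* and *Saa2* reached at most 2.59 and 2.75 RPKM (both in WT cells at D2), and *Orm2* and *Orm3* at most 5.63 and 10.3 RPKM (both in WT cells at D7). Whether the libraries kept strand is not given in the sources used here.

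Because these genes share regulators, promoter sequence was read where the GRCm38.p6 promoter set used here held the gene. These genes were *Lcn2*, *Cp*, *Steap4*, *Saa3*, *Serpina3n*, and *C3*. The set held no window for *Hp* or *Orm1*, so their promoters were not searched. The 250 bases before the annotated start were searched on both strands for a C/EBP motif (TTNNGNAA), a STAT motif (TTCNNNGAA), and the NF-κB consensus. Over all 32851 promoter windows of this length, 36.8% held the C/EBP motif, 7.02% the STAT motif, and 3.90% the NF-κB consensus. The 4 windows printed here belong to the genes with the most C/EBP matches (*Saa3*, *C3*), the gene with all 3 motifs (*Steap4*), and the gene with the largest gap between control libraries (*Lcn2*), written 5′ to 3′ on the strand of the gene with every match in capitals. Their positions are chr7:46715677-46715926 on the minus strand, chr17:57228137-57228386 on the minus strand, chr5:7960222-7960471 on the plus strand, and chr2:32387740-32387989 on the minus strand.
Saa3: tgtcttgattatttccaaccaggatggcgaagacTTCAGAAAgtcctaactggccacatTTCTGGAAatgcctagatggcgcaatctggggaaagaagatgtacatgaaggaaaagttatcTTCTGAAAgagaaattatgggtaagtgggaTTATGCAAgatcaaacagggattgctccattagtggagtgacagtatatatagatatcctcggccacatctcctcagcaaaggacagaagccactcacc
C3: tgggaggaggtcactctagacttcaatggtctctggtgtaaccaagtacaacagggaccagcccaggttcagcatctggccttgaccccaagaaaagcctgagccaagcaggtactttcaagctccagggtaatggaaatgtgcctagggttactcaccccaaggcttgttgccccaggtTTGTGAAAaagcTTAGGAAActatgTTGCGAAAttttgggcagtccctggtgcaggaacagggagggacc
Steap4: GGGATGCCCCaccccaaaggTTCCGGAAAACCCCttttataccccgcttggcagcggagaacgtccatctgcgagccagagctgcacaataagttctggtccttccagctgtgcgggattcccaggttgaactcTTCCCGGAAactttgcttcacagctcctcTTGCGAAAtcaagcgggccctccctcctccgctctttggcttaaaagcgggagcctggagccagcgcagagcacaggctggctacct
Lcn2: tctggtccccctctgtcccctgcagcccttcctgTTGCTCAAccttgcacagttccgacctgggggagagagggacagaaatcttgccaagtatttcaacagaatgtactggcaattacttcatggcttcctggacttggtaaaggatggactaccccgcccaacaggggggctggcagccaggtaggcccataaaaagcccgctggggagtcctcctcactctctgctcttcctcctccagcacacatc
The *Saa3* window held 4 C/EBP matches and the *C3* window 3, the latter within bases -70 to -38 from the start. The *Steap4* window held 2 C/EBP matches, 1 STAT match at -116 to -108, and 2 NF-κB matches, of which the one at -226 to -217 overlapped a C/EBP match. *Lcn2* held 1 C/EBP match, *Serpina3n* 2, and *Cp* 1 before each of its 2 annotated starts. A match to so short a motif is common and describes the letters of the window only.

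*Hp* ranged over the libraries from 0 to 355 RPKM. In WT cells it measured 36.4 RPKM at D0, 33.2 at D2, and 355 at D7, where it was the 53rd highest of all genes. K36M cells had 1.87 RPKM at D0, then 40.2 at D2, then 82.6 at D7. WT cells thus held a nearly flat level until D2 and a high one at D7, whereas K36M cells started low, lay near the WT level at D2, and lay under it at D7. With ectopic PPARγ, *Hp* in WT cells was at 6.22 RPKM under DMSO and 65.8 under Rosi, and in K36M cells at 0.488 and 1.23. Ctrl cells had 11.4 RPKM at D0 and 8.52 at D2, and KD cells had 0 reads at D0 and 2.90 RPKM at D2. Within every matched pair except the one at D2 of adipogenesis, the library with K36M or *Nsd2* KD was the lower one. In the order of the 14 levels, only 1 of the 13 neighboring pairs was not separated by counting error, K36M cells at D0 and PPARγ-expressing K36M cells with Rosi. Others were separated only narrowly. The log2 interval was -0.285 to -0.003 for K36M cells at D2 and WT cells at D0. It was -0.267 to -0.0025 for WT cells at D0 and D2.

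*Lcn2* was nearly level over the WT time course, at 269 RPKM at D0, 270 at D2, and 254 at D7, and in K36M cells went from 24.4 through 102 to 325. With ectopic PPARγ it was far lower, at 1.29 (DMSO) and 5.67 (Rosi) RPKM for WT and at 0.481 and 4.45 for K36M cells. Ctrl cells had 3.56 RPKM at D0 and 27.5 at D2, and KD cells 0.673 and 21.3. Of the 8 genes, *Lcn2* thus had the widest range over the control libraries made before differentiation. In the order of its levels, 7 of the 13 neighboring pairs were not separated by counting error, among them WT cells at D2 and D0, Ctrl cells at D2 and K36M cells at D0, and K36M cells at D0 and KD cells at D2.

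*Cp* was lowest at D2 in WT cells, with 25.4, 3.42, and 64.9 RPKM over the 3 days. The K36M levels were 3.16, 3.15, and 43.0 RPKM. The dip at D2 was thus a feature of the WT libraries, and K36M cells had the D2 level already at D0. PPARγ-expressing cells had little *Cp*, with 0.432 (DMSO) and 0.521 (Rosi) RPKM for WT and 0.182 and 0.248 for K36M cells. Ctrl cells had 6.56 RPKM at D0 and 4.65 at D2, and KD cells 0.405 and 0.281.

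*Steap4* measured 5.06, 4.65, and 37.3 RPKM in WT cells at D0, D2, and D7, and 0.401, 17.6, and 76.7 RPKM in K36M cells. It began lower in K36M cells and was higher in them at both later days. PPARγ-expressing WT cells held 0.439 (DMSO) and 2.91 (Rosi) RPKM, and K36M cells 0.248 and 0.553. Ctrl cells had 0.983 RPKM at D0 and 1.12 at D2, and KD cells 0.0366 (2 reads) and 0.252.

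*Saa3* reached the highest level of the 8, at 417, 286, and 625 RPKM in WT cells over the 3 days and at 99.6, 66.9, and 1003 in K36M cells. At D7 it ranked 7th among all genes in K36M cells and 16th in WT cells. With ectopic PPARγ it measured 5.20 (DMSO) and 44.9 (Rosi) RPKM for WT and 2.24 and 59.8 for K36M cells. Ctrl cells had 8.86 RPKM at D0 and 44.1 at D2, and KD cells 0.973 and 4.27.

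*Orm1* was seen clearly in 1 library only, WT cells at D7, with 15.5 RPKM (159 reads). The other libraries held 0 to 22 reads, which gave 0.0609 (D0) and 0.273 (D2) RPKM for WT cells, and 0, 1.46, and 2.35 RPKM for K36M cells over the 3 days. PPARγ-expressing cells had 0.180 and 0.787 RPKM (WT, DMSO and Rosi) and 0.160 and 0.206 (K36M). Ctrl cells had 0 and 0.0646 RPKM at D0 and D2, and KD cells 0 at both days. A count of 0 allowed up to 0.198 RPKM in Ctrl cells at D0 and 0.224 in KD cells at D0, and 12 of the 13 neighboring pairs of levels were not separated.

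*Serpina3n* peaked at D2 in WT cells, with 16.4, 117, and 60.3 RPKM over the 3 days, and measured 0.894, 62.6, and 59.2 RPKM in K36M cells. At D7 the WT and K36M levels could not be told apart by counting error. PPARγ-expressing cells had under 1 RPKM, with 0.176 (DMSO) and 0.928 (Rosi) for WT and 0.0984 and 0.379 for K36M cells. Ctrl cells had 3.30 RPKM at D0 and 28.7 at D2, and KD cells 0.220 and 2.44.

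*C3* measured 47.9, 52.1, and 403 RPKM for WT and 7.04, 15.9, and 285 for K36M cells, so that both had by far their highest level at D7. PPARγ-expressing WT cells held 1.51 (DMSO) and 14.2 (Rosi) RPKM, and K36M cells 1.28 and 1.89. Ctrl cells had 7.78 RPKM at D0 and 8.44 at D2, and KD cells 0.805 and 1.58. Reads of the 8 genes together made up 0.0893% of mapped reads in WT cells at D0 and 0.360% at D7, and 0.0128% and 0.291% in K36M cells. The share was lowest in KD cells at D0, at 0.000734%.

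**Figure D1:**
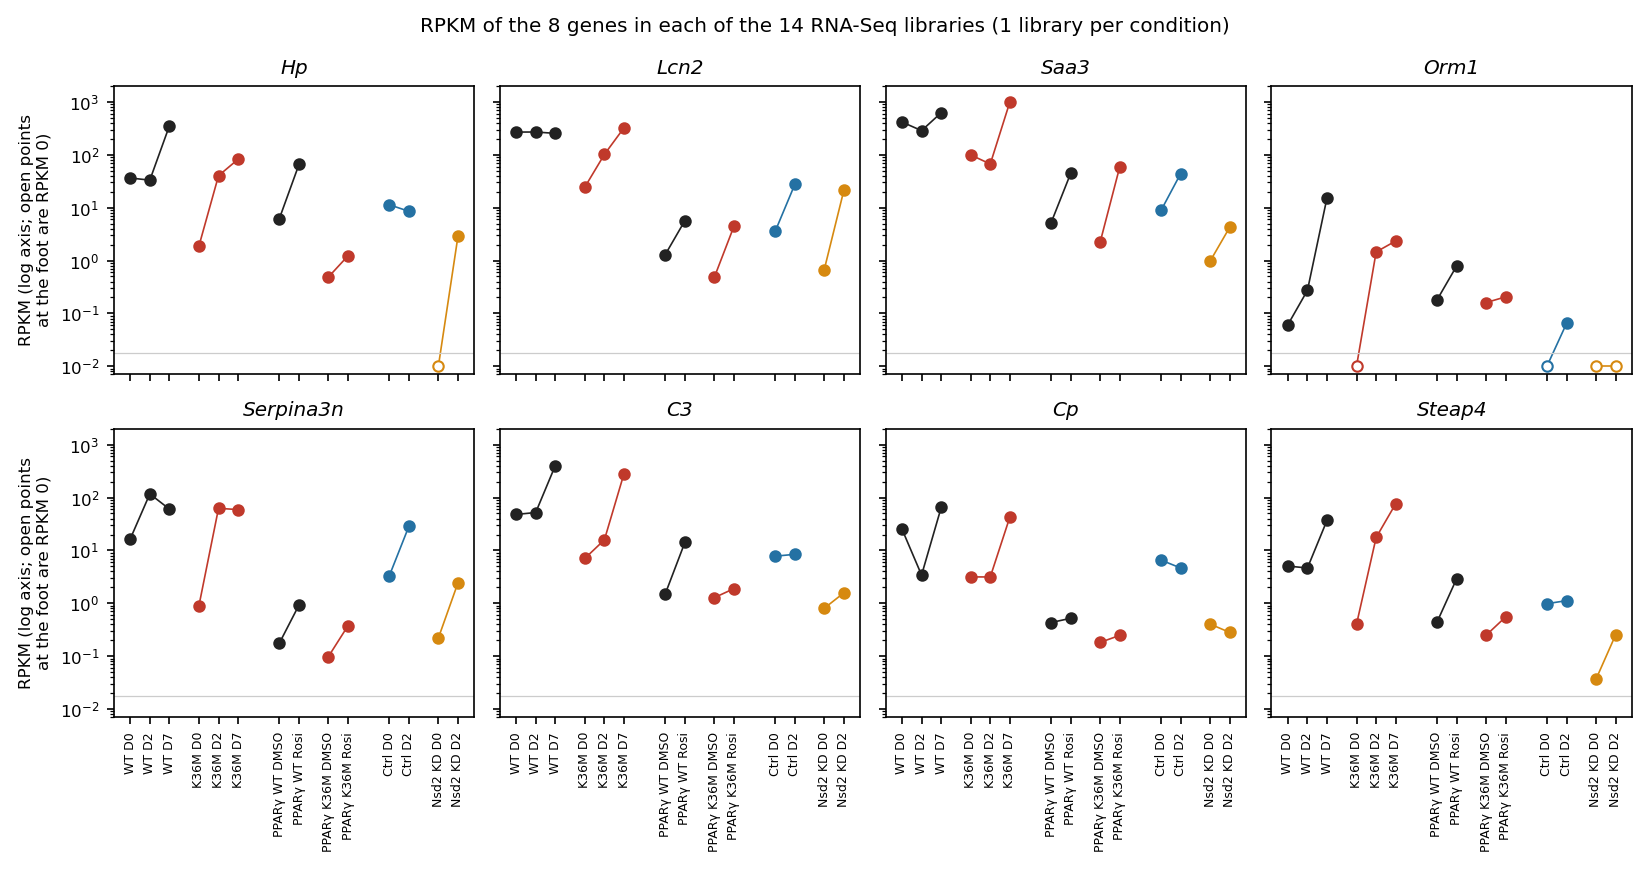
RPKM (log axis) of each of the 8 genes in each of the 14 libraries, with 1 point per library and lines joining the libraries of the same cells. *Hp* was at 36.4 RPKM in WT cells and 1.87 in K36M cells at D0, at 33.2 and 40.2 at D2, and at 355 and 82.6 at D7, and points at the foot of a panel mark an RPKM of 0.

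The first comparison followed the genes through adipogenesis. Changes of over 2-fold were counted wherever either library had a value above 0. In WT cells from D0 to D2, *Serpina3n* was 7.14-fold higher (log2 2.84, 95% counting interval 2.72 to 2.95) and *Cp* 7.43-fold lower (log2 -2.89, -3.09 to -2.70). *Orm1* rested on 1 and 4 reads, a ratio of 4.48 with a log2 interval of -1.17 to 7.78. Of the 8 genes, 2 (with *Orm1*) were over 2-fold higher and 1 lower, against 13.6% of all genes higher and 25.2% lower. From D2 to D7, 6 were over 2-fold higher and 0 lower in WT cells, against 22.4% and 12.2% of all genes. These 6 were *Orm1* (57.0-fold), *Cp* (19.0-fold), *Hp* (10.7-fold), *Steap4* (8.02-fold), *C3* (7.74-fold), and *Saa3* (2.19-fold). *Lcn2* and *Serpina3n* were within 2-fold, at log2 -0.08 and -0.96. The median of the 8 genes was log2 2.98, beside 0.09 for all genes.

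In K36M cells, 6 of the 8 genes were called in each interval. From D0 to D2, 6 of the 8 were over 2-fold higher and 0 lower, against 16.5% of all genes higher and 19.6% lower. *Serpina3n* was 70.0-fold higher (log2 6.13, 5.66 to 6.64), *Steap4* 43.8-fold, *Hp* 21.5-fold (log2 4.43, 4.01 to 4.87), *Lcn2* 4.17-fold, and *C3* 2.25-fold. *Orm1* went from 0 to 14 reads, which made it at least 7.40-fold higher with 3 reads as the floor. *Serpina3n*, *Steap4*, and *Hp* stood 22nd, 34th, and 72nd from the highest of the 12225 genes that reached 1 RPKM in either library. *Saa3* (log2 -0.57) and *Cp* (log2 0.00, -0.31 to 0.30, the sign of which flips under rescaling) were within 2-fold. From D2 to D7, 6 of the 8 were again over 2-fold higher and 0 lower, against 21.5% and 14.9% of all genes, with *C3* 18.0-fold, *Saa3* 15.0-fold, *Cp* 13.7-fold, *Steap4* 4.37-fold, *Lcn2* 3.20-fold, and *Hp* 2.05-fold higher. *Hp* lay just past the 2-fold limit there (log2 0.94 after median-ratio rescaling, which ends the call), and *Serpina3n* in WT cells over the same days lay just inside it at 1.94-fold lower (log2 -1.02 after rescaling, past the limit).

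The time courses of WT and K36M cells differed by more than counting error in most genes. From D0 to D2 the log2 change in K36M cells exceeded that in WT cells by 5.58 (4.96 to 6.20) for *Steap4*, by 4.56 (4.13 to 4.99) for *Hp*, by 3.29 for *Serpina3n*, by 2.89 for *Cp*, by 2.06 for *Lcn2*, and by 1.05 for *C3*. *Saa3* was the exception, with a difference of -0.03 (-0.20 to 0.14). From D2 to D7 the signs were mixed, with a larger log2 change in K36M cells for *Saa3* (by 2.78), *Lcn2* (by 1.76), *C3* (by 1.22), and *Serpina3n* (by 0.88) and a smaller one for *Orm1* (log2 difference -5.14, -6.87 to -3.42), *Hp* (-2.38, -2.55 to -2.22), *Steap4* (-0.88), and *Cp* (-0.47).

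The second comparison set K36M against WT cells at each day. It used the same libraries as the first, so these ratios and the changes over days are not separate observations. At D0, all 8 genes counted as lower in K36M cells, against 12.0% of all genes lower and 14.8% higher, although *Orm1* rested on 1 read against 0 and carries no fold. *Hp* was 19.4-fold lower (log2 -4.28, -4.72 to -3.87), *Serpina3n* 18.4-fold, *Steap4* 12.6-fold, *Lcn2* 11.0-fold, *Cp* 8.04-fold, *C3* 6.80-fold, and *Saa3* 4.19-fold. *Hp* and *Serpina3n* were 31st and 33rd from the lowest of 12219 genes. The median of the 7 genes above 0 in both libraries was log2 -3.46, beside 0.11 for all genes. For several of these genes the control libraries of the 3 experiments lay as far apart as this, as given further on.

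At D2 the 8 genes had moved apart. *Orm1* (4 and 14 reads, log2 2.42, 0.74 to 4.48) and *Steap4* (3.78-fold) were over 2-fold higher in K36M cells, and *Saa3* (4.28-fold), *C3* (3.28-fold), and *Lcn2* (2.65-fold) were lower. These 2 higher and 3 lower genes compare with 22.2% and 9.90% of all genes. *Hp* was within 2-fold at log2 0.28 (0.13 to 0.43), and so were *Cp* (log2 -0.12, -0.42 to 0.18) and *Serpina3n* (log2 -0.91). At D7, *Orm1* (6.63-fold) and *Hp* (4.30-fold, log2 -2.10, -2.19 to -2.02) were lower in K36M cells and *Steap4* (2.06-fold) was higher. This was 2 lower and 1 higher, against 13.2% and 19.7% of all genes, and median-ratio rescaling ended the call of *Steap4* (log2 0.92), leaving 0 higher. *Saa3* (log2 0.68), *Lcn2* (0.35), *Serpina3n* (-0.03), *C3* (-0.50), and *Cp* (-0.59) were within 2-fold. The adipocyte markers summed to 5240 RPKM in WT and 476 in K36M cells at D7, and the part of this difference in the results for these genes was not tested. In bulk RNA, fewer adipocytes and less RNA per adipocyte cannot be told apart.

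**Figure D2:**
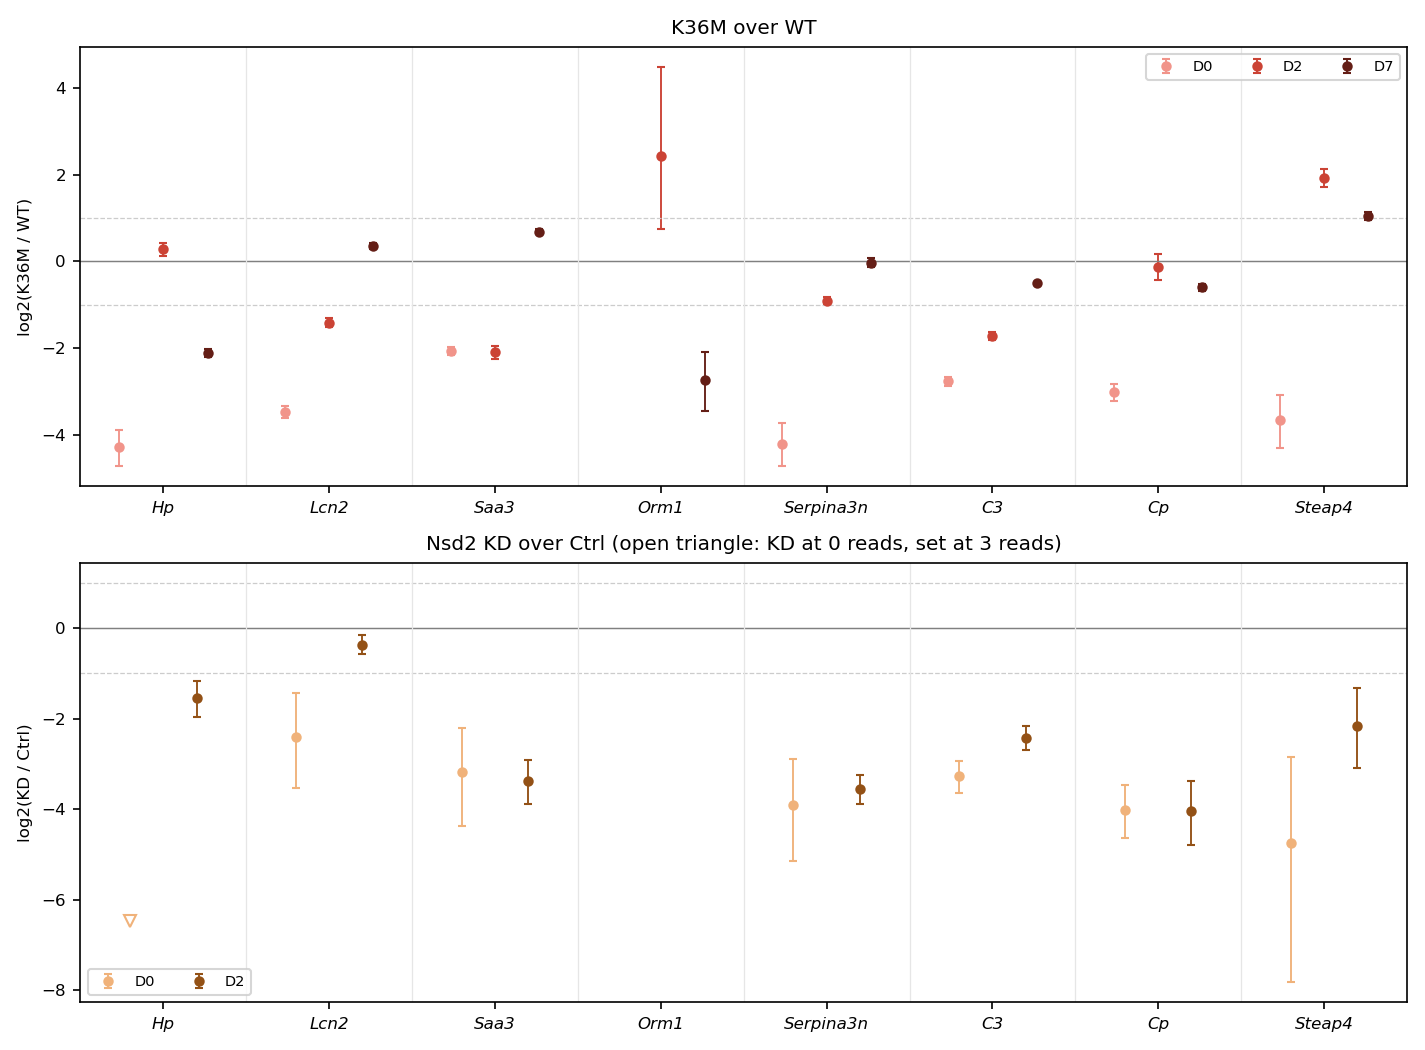
K36M over WT cells at D0, D2, and D7 (top, log2 ratio) and *Nsd2* KD over Ctrl cells at D0 and D2 (bottom, log2 ratio) for each gene, with bars for the 95% counting interval and dashed lines at 2-fold. *Hp* was at -4.28, 0.28, and -2.10 in K36M cells, and pairs with fewer than 5 reads in all (*Orm1* at D0 and in KD cells) are not drawn.

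The third comparison was *Nsd2* KD against Ctrl cells. At D0, 7 of the 7 genes with reads were over 2-fold lower in KD cells, against 18.1% of all genes lower and 13.5% higher. *Hp* had 302 reads in Ctrl cells and 0 in KD cells, which made it at least 88.8-fold lower with a floor of 3 reads. *Cp* was 16.2-fold lower, *Serpina3n* 15.0-fold, *C3* 9.67-fold, *Saa3* 9.12-fold, and *Lcn2* 5.29-fold. *Steap4* had 61 and 2 reads, a log2 ratio of -4.75 (-7.83 to -2.83). At D2, 7 of 8 counted as lower, *Orm1* with 1 read against 0 among them, against 18.5% of all genes lower and 12.0% higher. *Cp* was 16.6-fold lower, *Serpina3n* 11.7-fold, *Saa3* 10.3-fold, *C3* 5.35-fold, *Steap4* 4.44-fold, and *Hp* 2.93-fold (log2 -1.55, -1.96 to -1.16), while *Lcn2* was within 2-fold (log2 -0.37, -0.57 to -0.16). The adipocyte markers summed to 2422 RPKM in Ctrl and 141 in KD cells at D2, and their part in these ratios was not tested.

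From D0 to D2 in Ctrl cells, *Serpina3n* (8.69-fold), *Lcn2* (7.71-fold), and *Saa3* (4.97-fold) were higher, and *Orm1* also counted with 1 read against 0. None was over 2-fold lower. The 4 higher and 0 lower genes compare with 17.3% and 23.4% of all genes. *Hp* was slightly lower at D2 (log2 -0.42, -0.67 to -0.16). In KD cells, 5 of the 7 genes with reads were higher and 0 lower, against 16.9% and 24.5% of all genes. *Lcn2* was 31.7-fold higher, *Serpina3n* 11.1-fold, and *Saa3* 4.39-fold. *Steap4* had 2 and 14 reads, a log2 ratio of 2.79 (0.67 to 5.97), and *Hp* went from 0 to 69 reads, at least 22.7-fold higher. *Hp* was thus higher at D2 than at D0 in the KD and K36M libraries and within 2-fold of D0 in the Ctrl and WT libraries, although the level that KD cells reached (2.90 RPKM) stayed under that of Ctrl cells. The log2 change in KD cells exceeded that in Ctrl cells by 2.60 (0.40 to 4.79) for *Steap4*, 2.04 (1.05 to 3.02) for *Lcn2*, and 0.85 (0.42 to 1.28) for *C3*, and the intervals for *Saa3*, *Serpina3n*, and *Cp* included 0.

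The fourth comparison was the response to Rosi in cells with ectopic PPARγ. In WT cells, 7 of the 8 genes were over 2-fold higher with Rosi and 0 lower, against 17.0% of all genes higher and 16.2% lower. *Hp* was 10.6-fold higher (log2 3.40, 3.18 to 3.63), *C3* 9.41-fold, *Saa3* 8.63-fold, *Steap4* 6.62-fold, *Serpina3n* 5.26-fold, and *Lcn2* 4.38-fold. *Orm1* had 3 and 10 reads, a log2 ratio of 2.13 (0.17 to 4.63), and *Cp* was within 2-fold (log2 0.27, -0.46 to 0.99). *Hp*, *C3*, and *Saa3* were 100th, 109th, and 118th from the highest of 11719 genes. In K36M cells, 5 of the 8 were over 2-fold higher and 0 lower, against 18.3% and 15.0% of all genes. *Saa3* was 26.7-fold higher (log2 4.74, 4.19 to 5.34) and *Lcn2* 9.24-fold. *Serpina3n* had 5 and 10 reads (3.85-fold), *Hp* 16 and 21 reads (log2 1.34, 0.33 to 2.37), and *Steap4* 19 and 22 reads (2.23-fold), while *C3*, with 160 and 123 reads, was within 2-fold (log2 0.57).

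The Rosi responses of WT and K36M cells were also set against each other. The log2 response in K36M minus that in WT cells was -2.67 (-3.08 to -2.26) for *C3*, -2.07 (-3.03 to -1.10) for *Hp*, and -1.57 (-2.62 to -0.52) for *Steap4*. It was 1.63 (0.96 to 2.30) for *Saa3*, and the interval included 0 for *Lcn2* (1.08, -0.11 to 2.26), *Serpina3n*, *Orm1*, and *Cp*. These intervals hold counting error only, and the difference between responses was not tested against a spread between replicates.

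**Figure D3:**
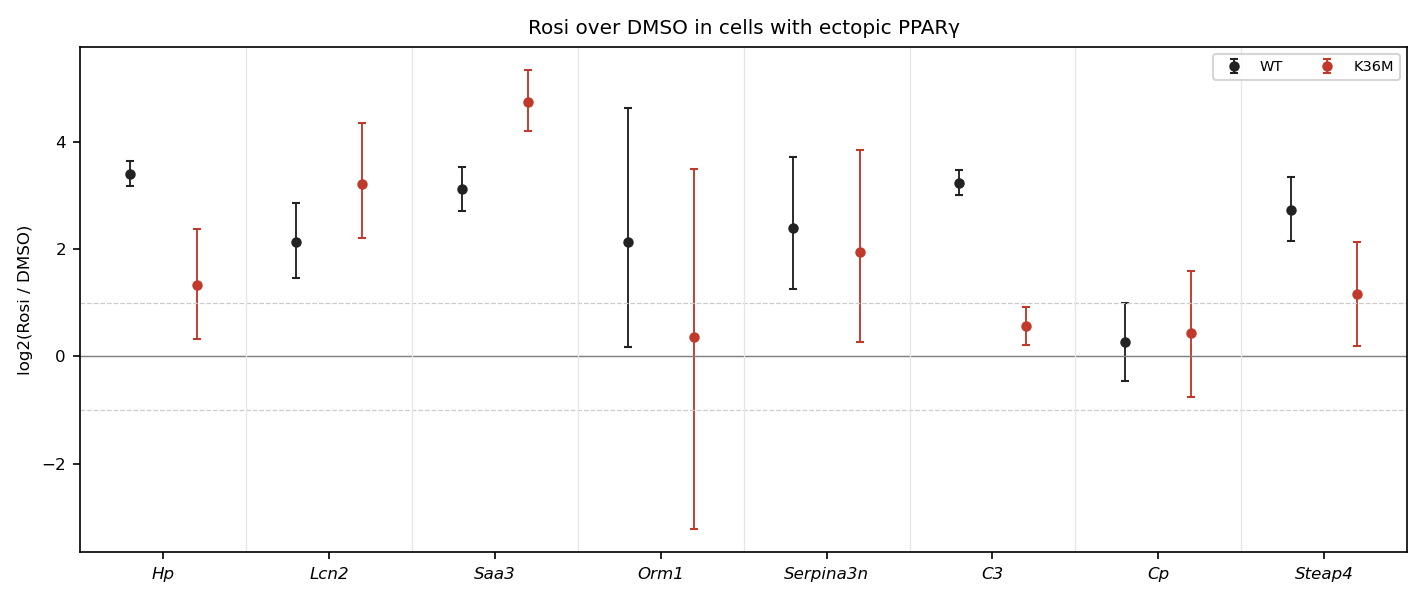
Log2 ratio of Rosi to DMSO for each gene in PPARγ-expressing WT (black) and K36M (red) cells, with bars for the 95% counting interval and dashed lines at 2-fold. *Hp*, *C3*, and *Steap4* lay lower in K36M cells (1.34, 0.57, and 1.16) than in WT cells (3.40, 3.24, and 2.73), and *Saa3* lay higher (4.74 and 3.11).

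Between the same libraries, K36M cells with DMSO had 4 of the 8 genes over 2-fold lower than WT cells and 0 higher, against 8.31% of all genes lower and 23.9% higher. These were *Hp* (12.7-fold, the 7th from the lowest of 11652 genes), *Lcn2* (2.69-fold), *Cp* (2.37-fold), and *Saa3* (2.32-fold). With Rosi, 6 were lower and 0 higher, against 12.6% and 28.4% of all genes. *Hp* was the 5th from the lowest of 11921 genes there. *C3* was 7.48-fold lower (log2 -2.90, -3.18 to -2.63), *Steap4* 5.25-fold, *Serpina3n* 2.45-fold, and *Cp* 2.10-fold (log2 -0.998 after rescaling, within 2-fold), *Orm1* had 10 and 2 reads (log2 -1.94, -5.17 to 0.29), and *Lcn2* (-0.35) and *Saa3* (0.41) were within 2-fold. With Rosi the adipocyte marker sum was 3604 RPKM for WT and 1434 for K36M cells, most of it *Fabp4* (2505 and 1148). The other markers were *Lpl* at 599 and 229 RPKM, *Adipoq* at 132 and 5.64, and *Plin1* at 148 and 12.1. *Cidec* was at 136 and 25.7 RPKM and *Cd36* at 83.7 and 13.1. The part of these markers in the ratios was not tested. The 2 pairs of comparisons use the same 4 libraries, so the Rosi responses and the K36M ratios are not separate observations.

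The control libraries of the 3 experiments are not replicates, since the viruses and, for PPARγ, the culture differed, but they show how far the genes varied without K36M or *Nsd2* KD. At D0, all 8 genes counted as lower in Ctrl than in WT cells (*Orm1* with 0 reads against 1), against 23.0% of all genes lower and 12.0% higher. *Lcn2* was 75.6-fold lower (log2 -6.24, -6.63 to -5.87), *Saa3* 47.0-fold, *C3* 6.16-fold, *Steap4* 5.15-fold, *Serpina3n* 4.97-fold, *Cp* 3.87-fold, and *Hp* 3.20-fold (log2 -1.68, -1.87 to -1.49). For *Lcn2* and *Saa3* this gap between control libraries was larger than that between K36M and WT cells at D0 (11.0-fold and 4.19-fold), for *C3* it was similar (6.80-fold), and for *Hp*, *Serpina3n*, *Steap4*, and *Cp* it was smaller. At D2, 7 of the 8 were lower in Ctrl than in WT cells and 0 higher, against 15.6% and 12.2% of all genes. *Lcn2* was 9.82-fold lower and *Hp* 3.89-fold, while *Cp* was 1.36-fold higher. PPARγ-expressing WT cells with DMSO had 7 of the 8 genes lower than WT cells at D0, against 26.1% of all genes lower and 19.8% higher, and 1 counted as higher (*Orm1*, 3 reads against 1, log2 1.56, -2.08 to 7.28). *Lcn2* was 208-fold lower, *Serpina3n* 93.0-fold, *Saa3* 80.3-fold, *Cp* 58.7-fold, *C3* 31.8-fold, *Steap4* 11.5-fold, and *Hp* 5.85-fold. For *Lcn2*, *Saa3*, *Serpina3n*, *Cp*, and *C3* this gap was larger than that between K36M and WT cells at D0, for *Steap4* it was similar (11.5-fold and 12.6-fold), and for *Hp* it was smaller (5.85-fold and 19.4-fold). Against WT cells at D0, the median log2 ratio over all genes above 0 in both libraries was -0.25 for Ctrl cells. It was -0.32 for PPARγ-expressing WT cells with DMSO. The middle of all genes thus also lay lower, and whether this came from scaling was not tested. At D0, *Il6* was at 28.7 RPKM in WT cells, 1.67 in K36M cells, 4.05 in Ctrl cells, and 0.475 in KD cells. With DMSO it was at 2.28 RPKM in PPARγ-expressing WT cells and 0.717 in PPARγ-expressing K36M cells. Over D0, D2, and D7 it measured 28.7, 4.91, and 1.31 RPKM in WT cells. In K36M cells it measured 1.67, 1.175, and 3.39 RPKM over these days. *Il6* was picked after its values were seen, and its part in the result was not tested.

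**Figure D4:**
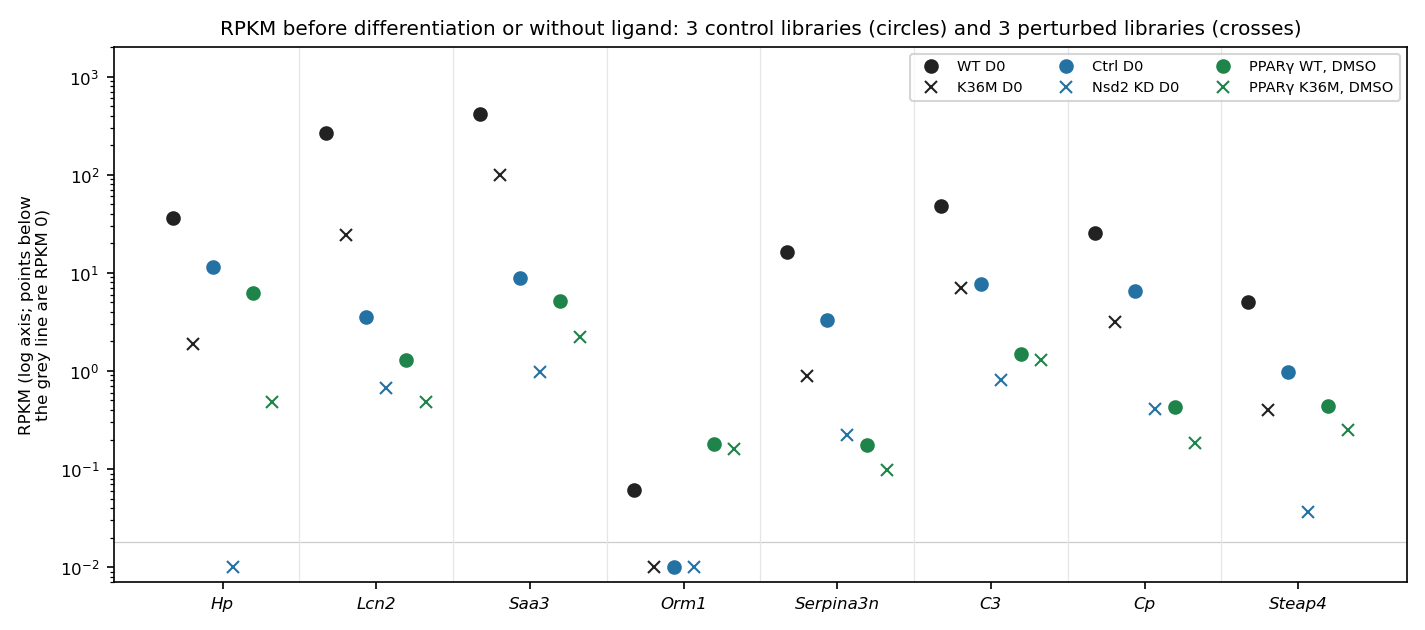
RPKM (log axis) of each gene in the 6 libraries made before differentiation or without ligand, with circles for WT, Ctrl, and PPARγ-expressing WT cells and crosses for the K36M or *Nsd2* KD cells of the same experiment. Across the circles *Lcn2* ran from 269 to 1.29 RPKM and *Hp* from 36.4 to 6.22, and for every gene except *Orm1* the cross lay under the circle of the same color. In the PPARγ pair, counting error did not separate cross and circle for *C3* (log2 -0.23, -0.56 to 0.09), *Serpina3n* (-0.84, -2.80 to 0.95), and *Steap4* (-0.82, -1.73 to 0.05).

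Known regulators of acute-phase genes were read in the same libraries. *Cebpd*, which encodes the C/EBP factor first induced in inflammation and in early adipogenesis, measured 42.8, 14.4, and 29.1 RPKM in WT cells at D0, D2, and D7 and 7.20, 24.9, and 41.5 RPKM in K36M cells. It was thus lower in K36M cells at D0 and higher at D2 and D7. Ctrl cells had 25.3 and 15.7 RPKM of *Cebpd* at D0 and D2 and KD cells 5.03 and 8.22, and the 4 PPARγ libraries lay between 5.91 and 6.77. *Cebpa*, a regulator of the adipocyte state, measured 6.64, 208, and 232 RPKM for WT and 6.33, 44.9, and 24.4 for K36M cells. Ctrl cells had 14.7 and 78.7 RPKM of *Cebpa* at D0 and D2 and KD cells 0.239 and 4.80. With ectopic PPARγ it went from 36.2 to 187 RPKM with Rosi in WT cells and measured 7.98 and 10.3 RPKM in K36M cells. *Cebpb* was high in every library, from 45.5 to 284 RPKM. *Pparg* measured 13.4, 66.7, and 101 RPKM for WT and 11.5, 49.6, and 21.4 for K36M cells. Ctrl cells had 12.5 and 37.7 RPKM of *Pparg* at D0 and D2 and KD cells 26.4 and 16.9. *Socs3*, a feedback inhibitor and target of STAT3 signaling, measured 21.0, 13.8, and 8.65 RPKM for WT and 8.71, 16.4, and 22.9 for K36M cells. *Nr3c1*, the glucocorticoid receptor gene, measured 30.9 RPKM in WT and 25.7 in K36M cells at D0 and 17.7 and 17.6 at D2.

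Other genes of the same pathways were counted from lists, to be read against the shares of all genes given for each comparison. As in those shares, a gene at 0 in only 1 library of a pair counted as over 2-fold. The median log2 ratio over all genes was 0.11 in K36M against WT cells at D2, 0.09 for Rosi in WT cells, 0.03 in K36M against WT cells with Rosi, and -0.04 in KD against Ctrl cells at D2, and list medians are given in this order. Of 31 other acute-phase genes, 30 were in the files. Between K36M and WT cells at D2, 7 of 25 counted genes were higher in K36M cells and 8 lower, with *Agt*, angiotensinogen, at 177 and 85.7 RPKM (WT and K36M). With Rosi in WT cells, 11 of 24 were higher and 5 lower, among them the metallothionein *Mt2* (1.24 to 29.1 RPKM) and the retinol carrier *Rbp4* (0.791 to 13.8 RPKM). With Rosi, 12 of 27 were higher in K36M than in WT cells and 8 lower, with *Rbp4* at 13.8 and 3.57 RPKM and *Mt2* at 29.1 and 78.7. In KD against Ctrl cells at D2, 2 of 21 were higher and 15 lower, with *Rbp4* at 7.26 and 0.0609 RPKM, *Mt1* at 305 and 107, and *Agt* at 23.0 and 5.08. The list medians were log2 0.44, 1.40, -0.21, and -1.51. Of 10 genes of the serpin A3 cluster, 9 were in the files. They numbered 2 higher and 4 lower of 9 in K36M against WT cells at D2, 3 and 1 of 8 for Rosi in WT cells, 2 and 6 of 8 in K36M against WT cells with Rosi, and 0 and 6 of 8 in KD against Ctrl cells at D2, and none of those called reached 5 RPKM. Their medians were log2 0.25, 0.81, -2.61, and -1.52.

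Of 28 complement genes besides *C3*, 27 were in the files. At D2, 6 of 21 were higher in K36M than in WT cells and 5 lower, with the lectin-pathway protease *Masp1* at 1.03 and 11.2 RPKM and the complement component *C4b* at 5.76 and 2.53. With Rosi in WT cells, 8 of 24 were higher and 9 lower, and *C4b* went from 0.580 to 6.25 RPKM. *C1ra*, a protease of the classical pathway, went from 6.72 to 19.2 RPKM and *Masp1* from 13.0 to 4.31. With Rosi, 9 of 25 were higher in K36M than in WT cells and 7 lower, with *C4b* at 6.25 and 1.10 RPKM, *C1ra* at 19.2 and 6.21, and *Masp1* at 4.31 and 14.2. In KD against Ctrl cells at D2, 3 of 21 were higher and 10 lower, with *C4b* at 5.16 and 0.756 RPKM and *Cr1l* at 15.1 and 5.65. The list medians were 0.46, 0.54, -0.43, and -0.81 on the log2 scale.

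Of 18 genes of the interleukin-6 family and STAT3 pathway, 3 of 17 were higher and 1 lower in K36M against WT cells at D2, with the cytokine *Il11* at 2.34 and 6.32 RPKM. For Rosi in WT cells, 1 of 18 was higher and 3 lower. In K36M against WT cells with Rosi, 3 of 17 were higher and 3 lower, with the shared receptor *Il6st* at 41.6 and 16.7 RPKM, *Socs3* at 9.63 and 4.58, and the kinase *Pim1* at 12.6 and 32.1. In KD against Ctrl cells at D2, 3 of 18 were higher and 2 lower. Medians of this list were log2 0.34, 0.16, -0.41, and -0.21. Of 20 genes of the interleukin-1, TNF, Toll-like receptor, and NF-κB pathways, 3 of 19 were higher and 1 lower in K36M against WT cells at D2, 2 and 2 of 20 for Rosi in WT cells, 1 and 7 of 19 in K36M against WT cells with Rosi, and 1 and 6 of 19 in KD against Ctrl cells at D2. Here the medians were log2 0.05, 0.14, -0.84, and -0.10. The receptor *Tlr2* went from 3.45 to 7.64 RPKM with Rosi in WT cells and was at 0.526 in K36M cells with Rosi. The NF-κB inhibitor *Tnfaip3* was at 6.71 and 2.15 RPKM and the TNF receptor *Tnfrsf1b* at 8.17 and 2.88 in WT and K36M cells with Rosi. The interleukin-1 receptor subunits *Il1rap* and *Il1r1* were at 16.0 and 21.2 RPKM in Ctrl cells and at 2.71 and 6.37 in KD cells at D2.

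Of 6 C/EBP factors, 0 of 5 were higher and 1 lower in K36M against WT cells at D2 (*Cebpa*). For Rosi in WT cells, 5 of 6 were higher and 0 lower, with *Ddit3* at 23.8 and 121 RPKM and *Cebpg* at 7.30 and 19.6. In K36M against WT cells with Rosi, 0 of 6 were higher and 1 lower (*Cebpa*), and in KD against Ctrl cells at D2, 0 of 6 were higher and 2 lower, with *Cebpa* at 78.7 and 4.80 RPKM. For Rosi in WT cells and for KD against Ctrl cells at D2, 5 of the 6 were above 0 in both libraries, so 1 call in each rested on a value of 0. Medians over the C/EBP list were log2 -0.25, 1.42, 0.13, and 0.08. The list of 8 glucocorticoid targets also held the receptor gene itself, *Nr3c1*. Of these 8, 2 were higher and 0 lower in K36M against WT cells at D2, with the kinase *Sgk1* at 7.46 and 28.2 RPKM and the chaperone *Fkbp5* at 56.8 and 148. For Rosi in WT cells, 3 were higher and 1 lower, with *Tsc22d3* at 4.71 and 20.9 RPKM, *Nr3c1* at 10.5 and 21.3, and *Sgk1* at 56.0 and 10.1. In K36M against WT cells with Rosi, 0 were higher and 0 lower, and in KD against Ctrl cells at D2, 1 was higher (*Sgk1*, 5.32 and 17.3 RPKM) and 0 lower. The medians were log2 0.53, 0.22, 0.00, and 0.15. From D0 to D2, 5 of the 8 were higher and 1 lower for WT and 4 and 0 for K36M cells. Of all genes, 13.6% were higher and 25.2% lower for WT and 16.5% and 19.6% for K36M cells. Ctrl cells had 5 higher and 1 lower, against 17.3% and 23.4% of all genes. KD cells had 6 and 1, against 16.9% and 24.5%. Dexamethasone was in the medium over these days together with the other induction agents, so day and agents cannot be told apart.

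Of 26 genes of iron, heme, and copper handling, 9 of 26 were higher and 2 lower in K36M against WT cells at D2. These included hephaestin (*Heph*), a ferroxidase related to *Cp*, at 1.30 and 13.1 RPKM, and *Steap2*, a metalloreductase related to *Steap4*, at 4.19 and 12.7. *Slc22a17*, a receptor for lipocalin 2, was at 3.74 and 9.67 RPKM. For Rosi in WT cells, 3 of 25 were higher and 1 lower, with *Aco1*, the iron regulatory aconitase, at 19.9 and 58.3 RPKM. With Rosi, 6 of 26 were higher in K36M than in WT cells and 5 lower, with *Steap1* at 11.6 and 42.2 RPKM, *Heph* at 1.84 and 5.60, and *Aco1* at 58.3 and 24.0. In KD against Ctrl cells at D2, 0 of 25 were higher and 9 lower, among them heme oxygenase (*Hmox1*), at 136 and 45.1 RPKM, *Lrp1*, which takes up heme bound to hemopexin, at 212 and 74.1, and the copper transporter *Slc31a1*, at 23.2 and 11.0. Medians over this list were log2 0.33, 0.01, -0.19, and -0.57.

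Genes with the most similar pattern were found by Pearson's r of log2(RPKM + 1) over the 14 libraries, among 10512 genes that reached 5 RPKM in at least 1 library. These libraries share cells and controls, so r is a description. The 5 genes nearest to *Hp* were *Selenop* (r = 0.947, 5.47 to 443 RPKM), *Chpt1* (0.947), *Cachd1* (0.942), *Enpp2* (0.934), and *Ngly1* (0.928), all highest in WT cells at D7. *C3* was nearest to *Znfx1* (0.968), *C4b* (0.965), and *Tent5a* (0.951), and *Orm1* to *Thrsp* (0.985), *Slc2a4* (0.983), and *Apoc1* (0.969). For *Lcn2* these were *Odr4* (0.939), *Prnp* (0.939), and *Abhd17b* (0.931), and for *Saa3*, *Osbpl9* (0.952), *Laptm4a* (0.931), and *Acp2* (0.931). For *Serpina3n* they were *Scara5* (0.946), *Gpm6b* (0.940), and *Apln* (0.935), and for *Steap4*, *Slc10a6* (0.954), *Phyh* (0.942), and *Tmem218* (0.942). *Cp* was nearest to the transcript NM_001042611 (r = 0.9996), which has no symbol in the table used and reached 56.4 RPKM in WT cells at D7, beside 64.9 for *Cp*. Whether it is another transcript of *Cp* was not settled here, and if it is, the *Cp* levels given are those of 1 of its transcripts. How reads shared by such transcripts were counted is not given, so the level of the gene cannot be told from these values. After it, *Cp* was nearest to *Aspn* (0.941) and *Scara3* (0.936). Among the 8 genes themselves, r ran from 0.511 (*Lcn2* and *Orm1*) to 0.916 (*C3* and *Steap4*).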

How the data were processed

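Only the 14 RNA-Seq libraries of the series were used, and its 20 ChIP-Seq samples were not analysed here. The authors deposited RPKM for 29082 RefSeq transcripts per library; the submitters' processing notes name mm9 and CASAVA 1.8.2, and the read mapper and counter are not given in the sources used here. Symbols were matched for 28436 transcripts, and a gene took its transcript with the highest mean RPKM. Whole reads were recovered for 26946 of 26946 transcripts above 0 in 2 or more libraries (tolerance 0.001 reads). RPKM ratios were compared without a pseudocount, with 95% Clopper-Pearson intervals of the reads, which hold counting error only, and a floor of 3 reads for counts of 0. RPKM divides by all mapped reads, so a few abundant transcripts can shift every ratio. Steps were tested on simulated data.

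The genes and gene lists were chosen with earlier results of these data known. Genes named from a list had the largest ratios (up to 3) over 2-fold with an RPKM of at least 5, in K36M against WT cells at D2 and with Rosi, Rosi in WT cells, and *Nsd2* KD against Ctrl cells at D2. Some genes that this rule named are not reported here. The regulators and *Nsd2* were fixed by name, and the *Orm* and *Saa* paralogs and *Il6* were added after their values were seen. The 7 alternatives were an RPKM filter of 1, pseudocounts of 0.1 and 1, median-ratio rescaling, an interval excluding 1, summed transcripts, and a 3-fold threshold. For the 3 comparisons between control libraries they were added after the data were seen. Python 3.11.15, numpy 2.4.6, pandas 2.3.3, and scipy 1.17.1 were used.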

Additional observations from a re-analysis of the deposited data

Results flagged for a closer look

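The values here are listed because a gene was higher in one comparison and lower in the matching one, with both counting intervals excluding 0. *Hp* was selected for such opposite changes in these libraries, so its entries follow from that choice. With 1 library per condition, no difference was tested against a spread between replicates. For *Hp* the log2 change between D0 and D2 was -0.13 for WT but 4.43 for K36M cells. The WT interval only just excluded 0 (-0.27 to -0.0025), and after median-ratio rescaling the WT value was -0.06, a shift large enough to bring 0 inside it, so the WT direction is not settled. Over the same days it was -0.42 for Ctrl and at least 4.50 for *Nsd2* KD cells (0 reads at D0, floor of 3 reads). In K36M against WT cells, which are the libraries of the time courses and no separate observation, *Hp* was at log2 -4.28 at D0, 0.28 at D2, and -2.10 at D7. *Steap4* was at log2 -3.66 at D0 and 1.92 at D2 in the same comparison. For *Lcn2* the log2 change between D2 and D7 was -0.0848 for WT but 1.68 for K36M cells, so that K36M against WT cells went from -1.41 at D2 to 0.35 at D7. *Saa3* was at log2 -2.10 at D2 and 0.68 at D7 in K36M against WT cells. *Orm1* was at log2 2.42 at D2 (4 and 14 reads) and -2.73 at D7. With ectopic PPARγ, *Saa3* in K36M against WT cells was at log2 -1.21 with DMSO and 0.41 with Rosi. *Saa3* also changed in opposite directions in the control libraries of separate experiments, with a log2 change between D0 and D2 of -0.54 for WT but 2.31 for Ctrl cells.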

How the results depend on the processing

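Of the 18 counts of genes over 2-fold, each recomputed under 7 alternatives, these moved by over 1.5 times. The count for Rosi in K36M cells, 5, became 3 with an RPKM filter of 1, 2 with a pseudocount of 1, and 3 over 3-fold. For K36M against WT cells with DMSO, 4 became 1 with a pseudocount of 1 and 1 over 3-fold. For K36M against WT cells with Rosi, 6 became 3 with an RPKM filter of 1 and 3 with a pseudocount of 1. The PPARγ libraries hold several of these genes at under 1 RPKM, where a pseudocount of 1 exceeds the values. No called ratio changed sign, and the sign of 1 uncalled ratio flipped under rescaling (*Cp* from D0 to D2 in K36M cells, log2 -0.0040 to 0.06). Rescaling factors ran from 0.889 to 1.20. Of 135 ratios of single genes, a pseudocount of 1 moved 46 and rescaling 20 beyond their counting interval. Summing transcripts could change none, since each of the 8 genes has 1 transcript with its symbol. Rescaling took *Hp* from D2 to D7 in K36M cells (log2 0.94), *Steap4* in K36M against WT cells at D7 (0.92), and *Cp* in K36M against WT cells with Rosi (-0.998) to within 2-fold, and *Serpina3n* from D2 to D7 in WT cells (-1.02) past it. No paired analysis was possible because there is 1 library per condition, and leaving out a library leaves no value.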
